A study of Arabidopsis thaliana with 12 samples.

Results

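The comparison described here sets lba1 upf3-1, an Arabidopsis thaliana line with mutations in both UPF1 and UPF3, against wild type. Each group holds 2 of the 12 libraries of the series, which looks at expression and splicing in seedlings with intact and with impaired mRNA decay, and the comparison covers 14079 of the 33602 loci on file, chosen by a mean of at least 5 RPKM (a read count divided by gene length and by library size) over the 6 columns of the expression table. All plants were untreated seedlings of the Columbia accession, 11 days old, grown in continuous light on medium with 2% sucrose. The lba1 upf3-1 seedlings carry the lba1 allele of UPF1 and the upf3-1 allele of UPF3 and are labelled upf1-/-upf3-/-. The single mutants lba1 and upf3-1 are set beside them, and wild type carries neither allele. The remaining groups, wild type incubated in liquid medium with and without cycloheximide, enter through the choice of genes and a check with the mock column. The labels describe seedlings and give no dissection, so a transcript level averages over all organs, and nothing in them says that the libraries of a group came from separate cultures.

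Nonsense-mediated decay (NMD) degrades mRNAs on which a ribosome stops too early or far from the 3′ end. UPF1 is the RNA helicase at its core, and UPF2 and UPF3 link that helicase to exon junction complexes, the proteins left on an mRNA where an intron was removed. A stop codon that lies well upstream of an exon junction therefore marks an mRNA for decay, and in plants a long 3′ untranslated region can do the same. lba1 is a missense allele, which leaves a transcript of normal length, so the UPF1 level does not check that label. In Arabidopsis, loss of NMD is known for dwarfed growth and a constitutive immune response.

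Each group is represented by 1 pooled column of 2 libraries, so no difference can be checked between replicates, and no SD or p-value can be given. The columns rest on about 89.2 M reads for lba1 upf3-1, 88.1 M for lba1, 91.4 M for upf3-1 and 83.1 M for wild type. Differences are given on log2(RPKM + 0.5), lba1 upf3-1 minus wild type, on which the change of a gene with low RPKM comes out too small. A value after a gene name that carries no unit is this log2 difference. A gene is called higher or lower where that difference is at least 1, a criterion of size that tests nothing. Counting error alone gives a 95% interval of plus or minus 0.09 at the median gene and 0.19 at the 95th percentile. By this rule 3105 genes were higher (22.1%) and 2988 were lower (21.2%), together 43.3% of the genes described, and the median of all differences was 0.12. After both columns were scaled to equal medians, 2748 genes were higher and 3240 lower. At 4-fold, 8.67% were higher and 10.4% lower. At 16-fold, 272 genes were higher (1.93%) and 240 lower (1.7%). For the single mutants the same rule gave 4.77% higher and 1.93% lower in lba1, and 3.81% higher and 0.547% lower in upf3-1, against the same wild type column. Set against wild type kept 4 h in liquid medium in place of untreated wild type, ACD2, AOX1A, BZIP60, CHS, CRK21, DR4, JAZ1, LHCB4.3, PAD3, SUS4, TAS3 and XTH23 changed sign among the genes named here as higher or lower, and so did several named as within 2-fold.

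UPF3 checks the labels. It was at 4.82 RPKM in lba1 upf3-1, 22.2 in lba1, 4.95 in upf3-1 and 13.1 in wild type, a difference of −1.35 for lba1 upf3-1. Both columns labelled upf3-1 were low and the other 2 were not. UPF1 was at 24.7 RPKM in lba1 upf3-1, 24.0 in lba1, 24.6 in upf3-1 and 20.7 in wild type, and the UPF2 gene AT2G39260 at 12.2 RPKM in lba1 upf3-1 against 10.1 in wild type. These genes belong to a list of 13 NMD and exon junction complex genes. AT1G28260, whose product is annotated as an Est1-type protein, was at 18.5 RPKM in lba1 upf3-1, 9.10 in lba1, 6.63 in upf3-1 and 5.85 in wild type (1.58), highest with both mutations. Of the 13 members 10 were within 2-fold, among them the exon junction proteins MAGO (−0.13), Y14 (0.19) and EIF4A-III (−0.28), the decapping proteins DCP1 (0.01) and DCP2 (0.46) and their scaffold VCS (−0.49), and the exonuclease XRN4 (0.66). The exon junction disassembly factor PYM was at 0.20. The median of the list was 0.20, against 0.12 for all genes.

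**Figure D1:**
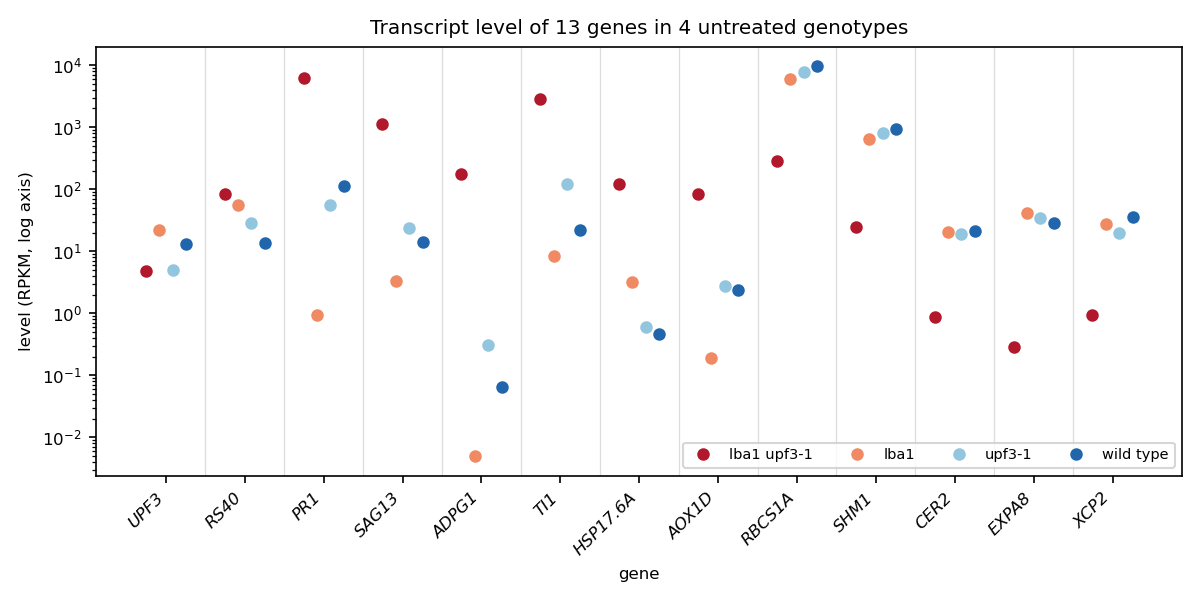
Level of 13 genes in lba1 upf3-1, lba1, upf3-1 and wild type, in RPKM on a log axis, with 1 point per pooled column and no error bars because each group has 1 column. UPF3 is low in both columns that carry upf3-1, whereas for ADPG1, HSP17.6A, RBCS1A and CER2 the lba1 upf3-1 point stands apart from the other 3.

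SR proteins are splicing regulators whose own pre-mRNAs are spliced into variants with early stop codons, a known class of NMD substrate. Of the 17 SR genes described 10 were higher (58.8%, against 22.1% of all genes) and none was lower, with a median of 1.1 in lba1 upf3-1, 0.38 in lba1 and 0.07 in upf3-1, and of 0.98 in lba1 upf3-1 after median scaling. The RS-subfamily gene RS40 was at 83.3 RPKM in lba1 upf3-1, 56.1 in lba1, 28.8 in upf3-1 and 13.5 in wild type (2.58), a level that stepped down in that order of columns. SCL33 was at 66.4 RPKM in lba1 upf3-1, 21.0 in lba1, 16.3 in upf3-1 and 11.9 in wild type, and there the lba1 upf3-1 column stood far above the rest. RS2Z32 (83.2 RPKM in lba1 upf3-1 against 18.4 in wild type, 2.15), SCL30A (36.8 RPKM in lba1 upf3-1 against 10.9 in wild type, 1.71), SCL30 (1.44) and SR34A (1.26) followed, and RS31A was at 2.28 with 29.1% of its exon bases shared with another locus. The SR genes that were not higher included SR34 (−0.33), SR45 (−0.23), RSZ21 (0.10), RSZ22 (−0.50) and SC35 (0.46). The columns count all transcripts of a gene together, so the share of its splice variants was not measured.

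Loci that make no protein were called higher more often than coding genes. Of 78 non-coding RNA loci described 41 were higher (52.6%) and 5 lower (6.41%), with a median of 1.04. Of 92 pseudogenes 39 were higher (42.4%) and 9 lower (9.78%). Protein-coding genes of the nucleus stood at 21.8% and 21.2%. The kit named in the labels does not mark strand. Loci that share no exon base with another gave like values, with 28 of 51 non-coding loci (54.9%) and 30 of 76 pseudogenes (39.5%) higher. These classes were also high in the single mutants, with 37.2% of non-coding loci higher in lba1 and 38.5% in upf3-1, against 4.77% and 3.81% of all genes. The low-value filter runs over all 6 columns, so a locus that is high in a mutant alone can pass it.

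The non-coding locus with the largest difference was AT3G61198, at 191 RPKM in lba1 upf3-1, 7.36 in lba1, 12.9 in upf3-1 and 1.80 in wild type (6.38). The non-coding locus AT1G22403 was at 97.6 RPKM in lba1 upf3-1, 13.7 in lba1, 12.4 in upf3-1 and 3.07 in wild type and AT3G26612 at 65.1 RPKM in lba1 upf3-1, 24.1 in lba1, 23.8 in upf3-1 and 3.19 in wild type. All 3 had every mutant above wild type, with lba1 upf3-1 highest. The pseudogenes AT3G48650 and AT4G23215 differed from these in lba1. AT3G48650 was at 170.4 RPKM in lba1 upf3-1, 0.494 in lba1, 7.97 in upf3-1 and 1.79 in wild type and AT4G23215 at 84.7 RPKM in lba1 upf3-1, 0.717 in lba1, 5.16 in upf3-1 and 1.78 in wild type, and lba1 lay below wild type in both. TAS3, a non-coding precursor of small RNAs that act on auxin response factors, was lower, at 7.24 RPKM in lba1 upf3-1 against 25.9 in wild type (−1.77). The pseudogene EXT11, of the extensin family, was at 0.184 RPKM in lba1 upf3-1 against 14.3 in wild type (−4.44).

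Exon junctions in the 3′ untranslated region are the best-known mark of an NMD substrate. Among coding genes, 84 have in every annotated model a junction more than 50 nt past the stop codon, and 20 of them were higher (23.8%, against 22.1% of all genes) and 9 lower (10.7%, against 21.2%). The share that was higher was thus near the background, and genes without such a junction were lower in 21.6% of cases. The median was 0.25, against 0.11 without a junction. To this class belongs RPS6, a TIR-type immune receptor gene known as a cause of immune activation in Arabidopsis NMD mutants, at 21.5 RPKM in lba1 upf3-1, 15.8 in lba1, 14.6 in upf3-1 and 9.66 in wild type (1.11). The largest difference of the class was that of AT4G34180, annotated as a cyclase family protein, at 435 RPKM in lba1 upf3-1, 32.6 in lba1, 60.4 in upf3-1 and 37.3 in wild type (3.53). AT3G45443, of unknown function, was at 23.6 RPKM in lba1 upf3-1, 30.4 in lba1, 34.0 in upf3-1 and 4.82 in wild type, higher in both single mutants than in lba1 upf3-1. Long 3′ untranslated regions of at least 600 nt had 21% higher and 19.3% lower, which is close to the background. Among coding genes grouped by intron number, those without introns were called most often in either direction, at 28% and 27.3%, and those with 11 or more introns least often, at 17.8% and 16%.

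**Figure D2:**
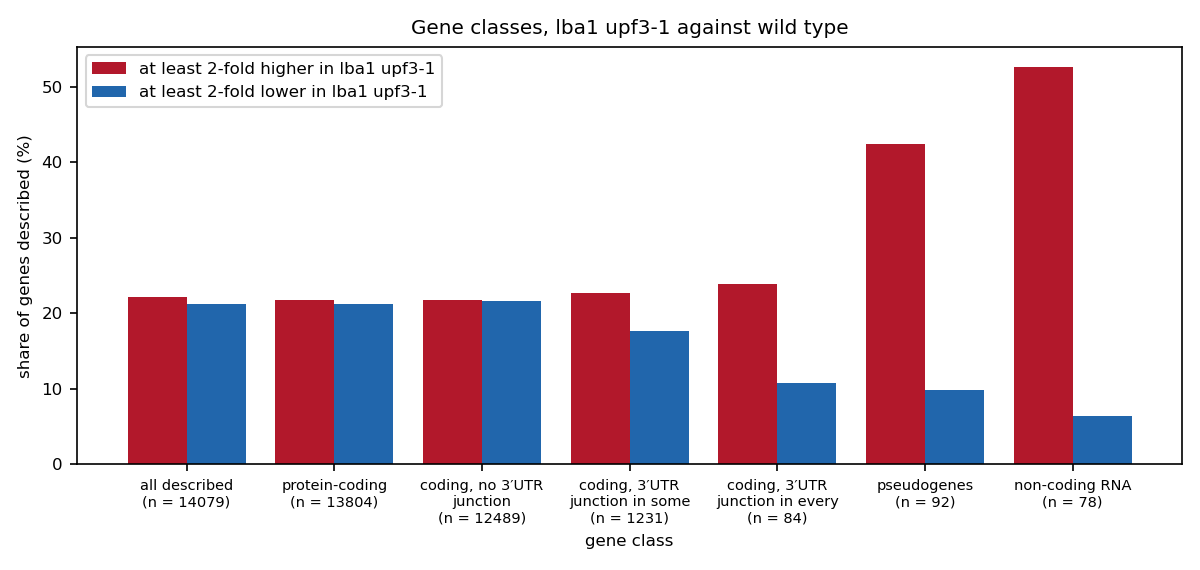
Share of genes described that were at least 2-fold higher (red) or lower (blue) in lba1 upf3-1 than in wild type, by gene class, with the number of genes under each. Pseudogenes and non-coding RNA loci have 42.4% and 52.6% higher, while genes with a 3′ UTR junction in every model have 23.8% higher, near the 22.1% of all genes.

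Photosynthesis was low throughout. All 40 nuclear genes for photosystem and light-harvesting proteins were lower (background 21.2%), from −5.41 for LHCB2.3 to −2.85 for LHCB4.3, at a median of −3.86, whereas the list stood at 0.30 in lba1 and 0.37 in upf3-1. The antenna gene LHCB1.3 was at 219 RPKM in lba1 upf3-1, 4467 in lba1, 3495 in upf3-1 and 3104 in wild type. LHCA4, of the photosystem I antenna, was at 90.7 RPKM in lba1 upf3-1, 2423 in lba1, 2307 in upf3-1 and 1164 in wild type, and PSBS, which dissipates excess light energy, at 45.9 RPKM in lba1 upf3-1, 768 in lba1, 848 in upf3-1 and 985 in wild type. In each case lba1 upf3-1 was low, while the single mutants stood above wild type for both antenna genes and a little below it for PSBS. The LHCB1 genes are near-identical copies whose reads may be split between them, and LHCB2.3 shares 40.6% of its exon bases with another locus.

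Of 24 Calvin cycle genes 21 were lower, with a median of −4.38. RBCS1A, the most abundant transcript of wild type and a Rubisco small subunit gene, was at 289.6 RPKM in lba1 upf3-1, 5991 in lba1, 7799 in upf3-1 and 9499.6 in wild type (−5.03). RCA, Rubisco activase, was at 81.0 RPKM in lba1 upf3-1, 2344 in lba1, 3122 in upf3-1 and 2973 in wild type, and PRK, the phosphoribulokinase that regenerates the CO2 acceptor, at 20.8 RPKM in lba1 upf3-1, 497 in lba1, 599 in upf3-1 and 714 in wild type. Again lba1 upf3-1 alone was low, and in bulk tissue fewer cells of a type and less RNA per cell cannot be told apart. The 3 members that went the other way were FBA3, a plastid aldolase gene (162 RPKM in lba1 upf3-1 against 78.2 in wild type, 1.05), CP12-3 (18.6 RPKM in lba1 upf3-1 against 7.80 in wild type, 1.2) and TKL2, a transketolase gene (52.9 RPKM in lba1 upf3-1 against 16.5 in wild type, 1.65). They lie beside the paralogues FBA1 (−4.52) and FBA2 (−4.66), CP12-2 (−4.25) and TKL1 (−2.85), which were lower. Photorespiration, which recovers the carbon lost when Rubisco fixes oxygen, had 14 of 14 genes lower and a median of −4.50. There the mitochondrial serine hydroxymethyltransferase SHM1 was at 24.3 RPKM in lba1 upf3-1, 642 in lba1, 817 in upf3-1 and 931 in wild type, the glycine decarboxylase GLDP1 at 21.4 RPKM in lba1 upf3-1 against 742 in wild type and the glycolate oxidase GOX1 at 25 RPKM in lba1 upf3-1 against 618 in wild type. Together these 78 genes held 0.919% of summed RPKM in lba1 upf3-1, 16.6% in lba1, 16.7% in upf3-1 and 16.2% in wild type.

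Genes that supply the chloroplast were low as well. Of 21 chlorophyll synthesis genes 20 were lower (median −2.94), from the vinyl reductase gene PCB2 (5.75 RPKM in lba1 upf3-1 against 112 in wild type, −4.17) and the magnesium chelatase genes CHLI2 (−4.06) and CHLH (−3.67) to HEMA1 of the entry step (−1.07), whose paralogue HEMA2 was higher (31.0 RPKM in lba1 upf3-1 against 9.92 in wild type, 1.59). The transcription factors GLK1 and GLK2, which activate photosynthesis genes, were at 3.52 RPKM in lba1 upf3-1 against 45.9 in wild type and 3.11 RPKM in lba1 upf3-1 against 33.6 in wild type (−3.53 and −3.24). Of the sigma factors that direct the plastid RNA polymerase, SIG1 (−2.20), SIG2 (−2.80), SIG4 (−3.29) and SIG6 (−2.87) were lower, and SIG3 (−0.83) and SIG5 (−0.77) were within 2-fold. The 43 chloroplast-encoded genes described were at a median of −1.71, with 43 of 43 lower, though the kit named in the labels selects polyadenylated RNA and so samples plastid transcripts poorly. Fatty acid synthesis and desaturation had 10 of 11 genes lower (median −2.24), with FAD8, a cold-induced desaturase, at 2.14 RPKM in lba1 upf3-1 against 48.6 in wild type. The list also holds desaturases of the endoplasmic reticulum, FAD2 at −0.95 and FAD3 at −1.84. GLU1 and GLN2, which reassimilate ammonium in the chloroplast, were at 8.97 RPKM in lba1 upf3-1 against 368 in wild type and 31.1 RPKM in lba1 upf3-1 against 802 in wild type. Their list, nitrate and sulfate assimilation, had 3 higher and 4 lower of 13, beside 22.1% higher and 21.2% lower among all genes. The nitrate reductase gene NIA2 was at 0.32, while its paralogue NIA1 (−1.47) and the nitrite reductase gene NIR1 (−1.42) were lower.

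G box elements, with the letters CACGTG, are common in light-regulated promoters, and 8 of the 40 photosystem genes (20.0%) had a match in the 250 bases before the annotated gene start, against 6.58% of 26707 nuclear coding promoters. The I box GATAAG was found on either strand in 22.5% of these promoters and in 12.2% of all. Both strands were searched, and a match is a description of the letters. Among all genes at least 4-fold lower, 8.11% held a G box, against 9.32% of those at least 4-fold higher and 7.35% of those within 2-fold. PSBQ1 and PSBQ2, which encode an extrinsic subunit of photosystem II, were at 30.8 RPKM in lba1 upf3-1 against 661 in wild type and 40.6 RPKM in lba1 upf3-1 against 577 in wild type. Their promoters each hold the G box more than once, as does that of PSAH2, and are shown as examples (RefSeq, TAIR10.1, 5′ to 3′, G box in capitals):
PSBQ1, chr4:11334102-11334351, plus strand: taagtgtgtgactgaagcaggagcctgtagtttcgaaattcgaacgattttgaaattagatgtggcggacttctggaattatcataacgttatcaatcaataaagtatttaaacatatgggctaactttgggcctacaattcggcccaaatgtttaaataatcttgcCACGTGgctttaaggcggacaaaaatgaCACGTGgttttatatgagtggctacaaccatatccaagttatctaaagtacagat
PSBQ2, chr4:2673244-2673493, minus strand: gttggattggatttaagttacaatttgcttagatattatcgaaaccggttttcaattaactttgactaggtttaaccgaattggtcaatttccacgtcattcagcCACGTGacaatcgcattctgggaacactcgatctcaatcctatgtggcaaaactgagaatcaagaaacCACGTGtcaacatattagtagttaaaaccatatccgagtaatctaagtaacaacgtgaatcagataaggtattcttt

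**Figure D3:**
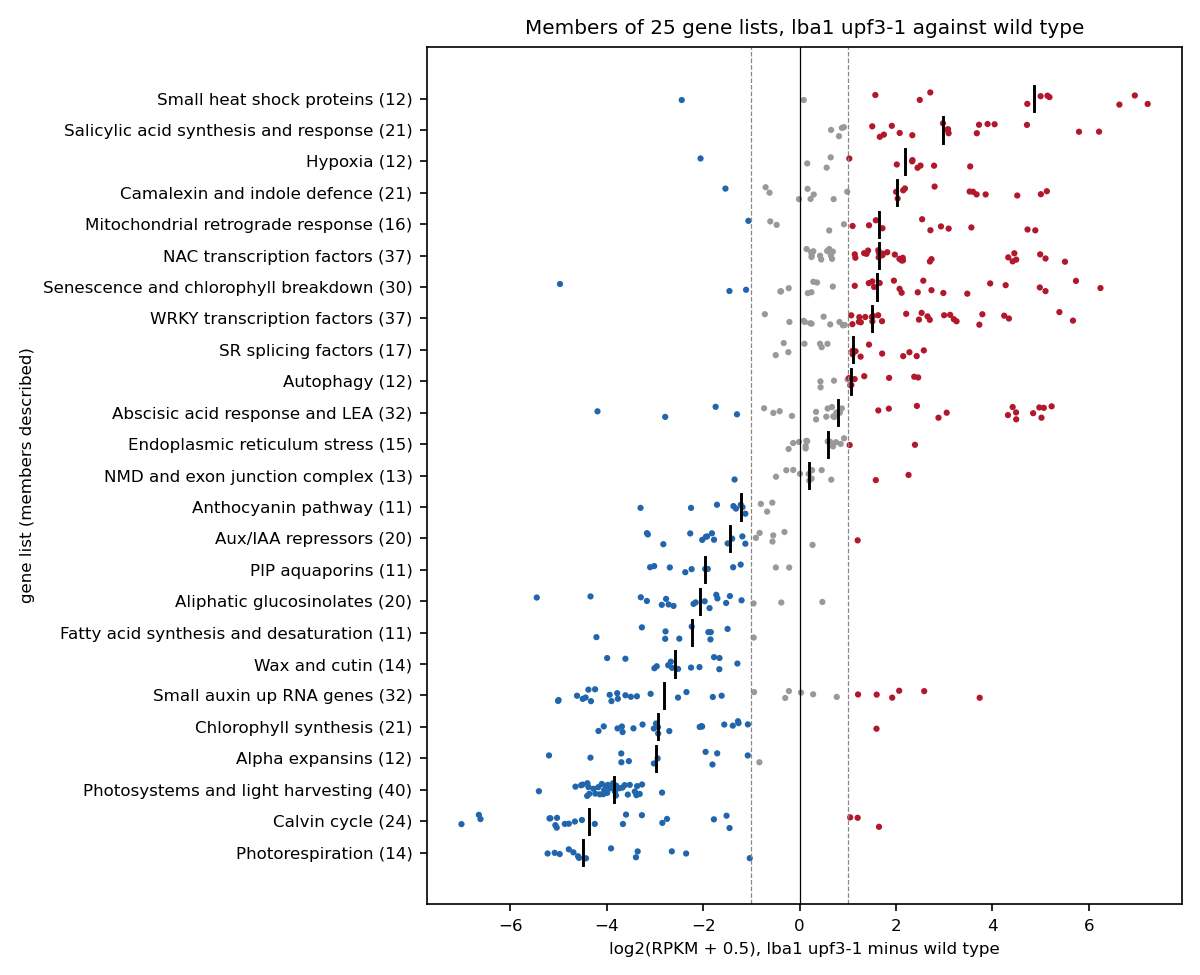
Difference of each described member of 25 gene lists on log2(RPKM + 0.5), lba1 upf3-1 minus wild type, with the number of members in brackets. Red and blue points are at least 2-fold higher and lower, grey points are within 2-fold, the black bar is the median of the list, and dashed lines mark 2-fold; the lists run from −4.50 for photorespiration to 4.86 for small heat shock proteins.

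Most senescence genes described were higher, with exceptions at the breakdown of chlorophyll. Of 30 genes described 19 were higher (background 22.1%) and 3 lower, at a median of 1.60. Some of those higher, such as CEP1, SAG29 and the longevity regulator JUB1, passed the filter only through their lba1 upf3-1 level. The count therefore covers the described members alone. SAG13, a dehydrogenase gene of early senescence, was at 1106 RPKM in lba1 upf3-1, 3.29 in lba1, 24.1 in upf3-1 and 14.1 in wild type (6.24), and SAG21 at 1253 RPKM in lba1 upf3-1, 70 in lba1, 189 in upf3-1 and 80.4 in wild type. CEP1, a cysteine protease of dying tissue, was at 72.0 RPKM in lba1 upf3-1, 1.41 in lba1, 2.47 in upf3-1 and 0.861 in wild type. The lba1 upf3-1 column stood above lba1, upf3-1 and untreated wild type in these 3 genes. The NAC factors NAC092 (82.9 RPKM in lba1 upf3-1 against 12 in wild type, 2.74) and NAP (12.9 RPKM in lba1 upf3-1 against 5.55 in wild type, 1.14), which drive leaf senescence, were higher, and so was the nitrogen-recycling glutamine synthetase gene GLN1;1 (185 RPKM in lba1 upf3-1 against 42.2 in wild type). NYE1, which removes magnesium from chlorophyll, was at 1.54, but PAO (0.24), PPH (0.28) and NYC1 (0.36) of the same route were within 2-fold, and ACD2 (−1.46), HCAR (−1.11) and the chlorophyllase gene CLH1 (0.863 RPKM in lba1 upf3-1 against 42.3 in wild type, −4.97) were lower. SAG12, the usual marker of advanced natural senescence, was at 0.007 RPKM in lba1 upf3-1 and at 0 in wild type, and SEN1 was at −0.23.

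Autophagy, the delivery of cell contents to the vacuole, had 8 of 12 genes higher, none lower and a median of 1.06 (0.94 after median scaling). ATG8H was at 54.3 RPKM in lba1 upf3-1, 11.0 in lba1, 11.9 in upf3-1 and 9.46 in wild type and ATG8A at 104 RPKM in lba1 upf3-1, 25.7 in lba1, 24.3 in upf3-1 and 19.5 in wild type, both encoding proteins of the autophagosome membrane. Of 3 organ separation genes described 2 were higher, beside 22.1% of all genes. Of the members left out by the filter, ADPG2 was at 2.35, QRT2 at −0.22 and HSL2 at −0.29. ADPG1, a pectin-cleaving enzyme of abscission and pod opening with the largest positive difference of all genes (8.27), was at 174 RPKM in lba1 upf3-1, 0.005 in lba1, 0.306 in upf3-1 and 0.066 in wild type. IDA, the peptide signal of abscission, was at 29.2 RPKM in lba1 upf3-1, 0.278 in lba1, 1.05 in upf3-1 and 0.477 in wild type (4.93), while its receptor gene HAE was at 0.24. In lba1, upf3-1 and untreated wild type, ADPG1 and IDA were at about 1 RPKM or below, while IDA was at 20.7 RPKM in the mock column. ADPG1 passed the filter through its lba1 upf3-1 level alone, so its call adds nothing about the group.

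The salicylic acid pathway was high from synthesis to output. Of 21 genes described 17 were higher and none lower, with a median of 2.97 in lba1 upf3-1, −0.49 in lba1 and 0.20 in upf3-1. The regulators SARD1 and CBP60G, which switch on salicylic acid synthesis, were at 38.3 RPKM in lba1 upf3-1, 0.508 in lba1, 3.09 in upf3-1 and 1.85 in wild type and at 52.7 RPKM in lba1 upf3-1, 1.31 in lba1, 10.2 in upf3-1 and 5.79 in wild type. The synthesis genes ICS1 (19.4 RPKM in lba1 upf3-1 against 5.79 in wild type, 1.66), EDS5 (33.1 RPKM in lba1 upf3-1 against 3.43 in wild type, 3.09) and PBS3 (65.9 RPKM in lba1 upf3-1 against 3.95 in wild type, 3.90) followed, and ICS2, the minor isochorismate synthase, was at 0.327 RPKM in lba1 upf3-1 against 3.00 in wild type. The genes that remove the hormone, DLO1 (159 RPKM in lba1 upf3-1 against 1.65 in wild type, 6.21), DMR6 (1.91) and UGT76B1 (2.97), were higher too. PR2, a secreted glucanase, was at 189 RPKM in lba1 upf3-1, 3.52 in lba1, 41.8 in upf3-1 and 22.1 in wild type, and PR1, the most abundant transcript of lba1 upf3-1, at 6294 RPKM in lba1 upf3-1, 0.922 in lba1, 56.4 in upf3-1 and 113 in wild type. For both output genes lba1 lay below wild type. The receptors NPR1 (0.88) and NPR4 (0.65) and the immune regulator EDS1 (0.92) were within 2-fold, whereas NPR3 (2.34) and PAD4 (2.08) were higher. FMO1, which makes the mobile signal N-hydroxypipecolic acid, was at 87.4 RPKM in lba1 upf3-1, 0.469 in lba1, 2.39 in upf3-1 and 2.84 in wild type, but ALD1, of the first step of that route, was at 0.516 RPKM in lba1 upf3-1 against 1.04 in wild type.

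Of the surface receptors and their signalling partners 10 of 19 were higher and 1 lower, with a median of 1.04 that fell short of 2-fold after median scaling (0.92). EFR, the receptor for bacterial elongation factor, was at 25.4 RPKM in lba1 upf3-1, 1.46 in lba1, 4.07 in upf3-1 and 3.32 in wild type, and FLS2, the receptor for flagellin, at 3.57 RPKM in lba1 upf3-1, 14.1 in lba1, 7.21 in upf3-1 and 8.75 in wild type (−1.19). The pair thus differed in direction. The flagellin-induced kinase gene FRK1 (22.6 RPKM in lba1 upf3-1 against 1.28 in wild type, 3.70) and MPK11 (21.9 RPKM in lba1 upf3-1 against 1.51 in wild type, 3.48) were higher, and MPK3 (−0.41), MPK6 (0.26) and RBOHD (0.78) were within 2-fold. Of 28 intracellular NLR receptor genes 8 were higher (28.6%, near the 22.1% of all genes) and 3 lower, with a median of 0.24. The helper receptor gene ADR1 was at 31.8 RPKM in lba1 upf3-1, 4.29 in lba1, 7.50 in upf3-1 and 8.19 in wild type, whereas RPP8 (−0.61) and RPP13 (−0.63) were within 2-fold.

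WRKY and NAC transcription factors, families with many stress regulators, were higher where they passed the 2-fold rule. Of the 37 WRKY genes described, of 71 on file, 26 were higher and none lower (median 1.51). WRKY75 was at 117 RPKM in lba1 upf3-1, 1.53 in lba1, 4.23 in upf3-1 and 1.81 in wild type (5.67) and WRKY51 at 28.9 RPKM in lba1 upf3-1, 0.371 in lba1, 1.06 in upf3-1 and 0.947 in wild type (4.34), and WRKY40 (0.50) was within 2-fold. Of 37 NAC genes described, of 99 on file, 25 were higher and none lower (median 1.64, and 0.55 without the filter). JUB1, a regulator of longevity, was at 40.1 RPKM in lba1 upf3-1, 0.778 in lba1, 1.13 in upf3-1 and 0.682 in wild type and ANAC104, of xylem cells, at 57.0 RPKM in lba1 upf3-1, 0.754 in lba1, 1.46 in upf3-1 and 0.765 in wild type. The filter can admit a member through the column in which it is high, so these counts cover the described members alone. Of 22 cysteine-rich receptor-like kinases 12 were higher and 2 lower, with CRK36 at 53.8 RPKM in lba1 upf3-1 against 1.73 in wild type (4.61) and CRK21 at −1.98.

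The W box, the binding sequence of WRKY proteins, was searched as TTGACC or TTGACT, and it was found on either strand in the 250 bases before 41.7% of the genes at least 4-fold higher, 22.2% of those at least 4-fold lower and 28.3% of those within 2-fold, against 28.5% of all nuclear coding promoters. The salicylic acid list held it in 5 of 23 promoters (21.7%). Of the 25 highest genes 23 have a nuclear coding promoter, and 11 of those 23 held a W box. AT3G19615, of the 25 highest, held it 3 times and is not shown. TI1, a trypsin inhibitor gene of defence against insects, and GSTU3, a glutathione transferase gene, are also among the 25 highest. They hold the W box more than once and are shown as examples (RefSeq, TAIR10.1, 5′ to 3′, W box in capitals):
TI1, chr2:18066710-18066959, plus strand: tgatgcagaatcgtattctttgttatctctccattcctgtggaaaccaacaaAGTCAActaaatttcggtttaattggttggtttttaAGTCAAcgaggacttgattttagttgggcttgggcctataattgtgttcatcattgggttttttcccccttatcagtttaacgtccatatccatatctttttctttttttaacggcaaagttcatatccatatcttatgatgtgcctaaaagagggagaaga
GSTU3, chr2:12629641-12629890, minus strand: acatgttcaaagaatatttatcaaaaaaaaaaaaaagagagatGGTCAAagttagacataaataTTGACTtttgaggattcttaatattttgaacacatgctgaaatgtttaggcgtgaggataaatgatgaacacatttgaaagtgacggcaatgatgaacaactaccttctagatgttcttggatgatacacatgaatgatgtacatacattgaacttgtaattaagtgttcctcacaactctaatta

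Defence proteins held a larger part of the transcript pool. The 8 protease inhibitor genes held 1.65% of summed RPKM in lba1 upf3-1 and 0.0712% in wild type. TI1 was at 2803 RPKM in lba1 upf3-1, 8.37 in lba1, 120.3 in upf3-1 and 22.2 in wild type and UPI at 1182 RPKM in lba1 upf3-1, 27.1 in lba1, 19.9 in upf3-1 and 10.5 in wild type, while DR4, a Kunitz-type inhibitor gene, was lower (38.7 RPKM in lba1 upf3-1 against 221 in wild type, −2.50). The phi-class glutathione transferases, which couple glutathione to toxic or defence compounds, held 1.85% in lba1 upf3-1 against 0.264% in wild type. GSTF7 was at 2827 RPKM in lba1 upf3-1, 26.6 in lba1, 85.6 in upf3-1 and 58.7 in wild type and GSTF6 at 1866 RPKM in lba1 upf3-1, 26.2 in lba1, 103 in upf3-1 and 105 in wild type, and GSTF8 was at −0.61. Both high genes were lowest in lba1. Of 22 tau-class genes, an enzyme class of the same family, 10 were higher and 4 lower (median 0.87), with GSTU3 at 292 RPKM in lba1 upf3-1, 0.057 in lba1, 1.86 in upf3-1 and 1.32 in wild type, GSTU11 at 5.47 and GSTU20 at −3.45. Besides these, EXT4, an extensin that stiffens the wall (4035 RPKM in lba1 upf3-1 against 168 in wild type), the peroxidase gene PRXCB (3006 RPKM in lba1 upf3-1 against 93.3 in wild type) and OSM34, an osmotin gene (2575 RPKM in lba1 upf3-1 against 38.1 in wild type), were among the 10 most abundant transcripts of lba1 upf3-1.

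**Figure D4:**
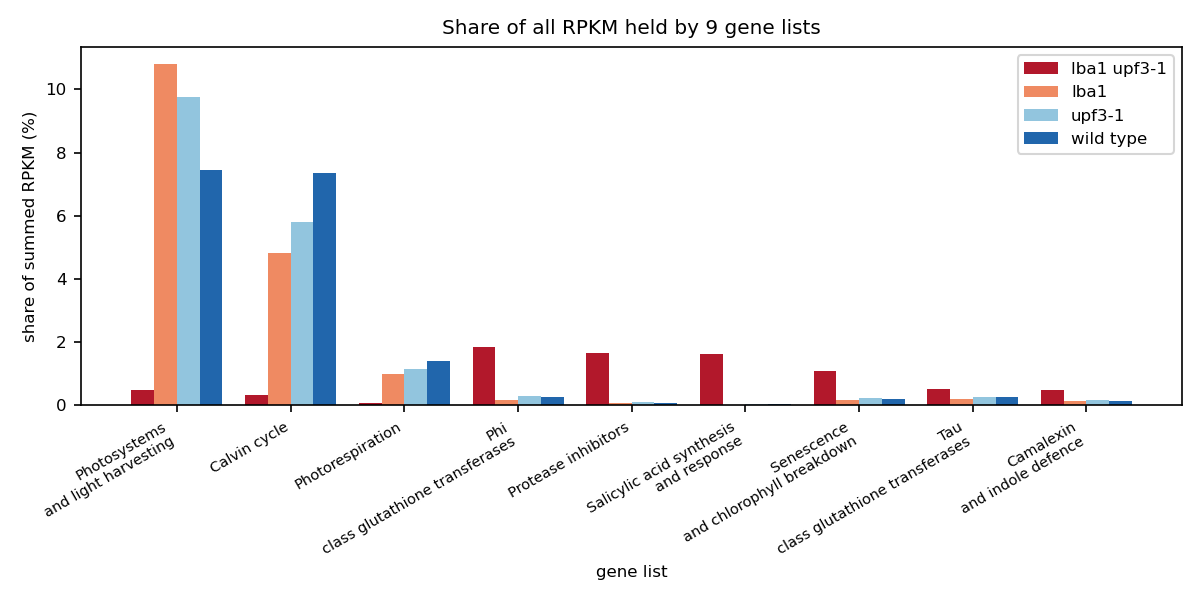
Share of summed RPKM held by 9 gene lists in lba1 upf3-1, lba1, upf3-1 and wild type, as bars from 0 in percent. Photosystem genes hold 0.503% in lba1 upf3-1 and 7.44% in wild type, and phi-class glutathione transferases 1.85% and 0.264%.

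Of 9 defensins described 2 were higher, near the 22.1% of all genes, and 6 lower, against 21.2% of all genes. Both higher members, PDF1.1 and PDF1.4, passed the filter only through their lba1 upf3-1 level. PDF1.1 was at 94.5 RPKM in lba1 upf3-1, 1.52 in lba1, 0.083 in upf3-1 and 0.068 in wild type (7.39) and PDF1.4 at 97.8 RPKM in lba1 upf3-1, 1.75 in lba1, 3.18 in upf3-1 and 2.45 in wild type (5.06). PDF1.2A, PDF1.2C and PDF1.3, markers of the jasmonate and ethylene branch, were at 0 in lba1 upf3-1, against 78.4, 48.6 and 35.2 RPKM in wild type. Taken against a floor of 3 reads, PDF1.2C was at least 792-fold and PDF1.3 at least 647-fold lower, and lba1 was also low, at 4.59 and 4.11 RPKM. The PDF1.2 copies are close in sequence and their reads may be split. In all, 10 genes with at least 5 RPKM in wild type were at 0 in lba1 upf3-1. In the other direction, 6 genes with at least 5 RPKM in lba1 upf3-1 were at 0 in wild type. The JAZ repressors of jasmonate signalling went both ways, with a median of 1.28 (0.17 where the filter was set on the columns of lba1 upf3-1 and wild type) and 6 of 11 higher, such as JAZ1 (89.2 RPKM in lba1 upf3-1 against 19.3 in wild type, 2.18) and JAZ8 (7.28 RPKM in lba1 upf3-1 against 0.179 in wild type, 3.52), and JAZ9 (5.70 RPKM in lba1 upf3-1 against 33.4 in wild type, −2.45) and JAZ6 (−1.23) lower.

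Defence compounds made from tryptophan and from methionine differed in direction. Of 21 camalexin and indole genes 12 were higher and 1 lower, with a median of 2.03. CYP79B2, the entry enzyme from tryptophan, was at 399 RPKM in lba1 upf3-1, 47.0 in lba1, 33.0 in upf3-1 and 30.8 in wild type, the camalexin enzyme PAD3 at 128 RPKM in lba1 upf3-1, 2.78 in lba1, 7.22 in upf3-1 and 10.6 in wild type and CYP71A12 at 207 RPKM in lba1 upf3-1, 1.85 in lba1, 6.12 in upf3-1 and 5.95 in wild type. In all 3 lba1 upf3-1 stood above lba1, upf3-1 and untreated wild type, but PAD3 changed sign against the mock column. MYB34 (−0.71), CYP79B3 (−0.62) and CYP83B1 (0.23), which serve indole glucosinolates, were within 2-fold, and IGMT1 was lower (−1.54). Of 20 aliphatic glucosinolate genes 17 were lower and none higher, with a median of −2.06. CYP79F1, the entry enzyme from elongated methionine, was at 0.772 RPKM in lba1 upf3-1, 30.5 in lba1, 39.1 in upf3-1 and 55.2 in wild type (−5.45) and MYB29, a regulator of the pathway, at 0.178 RPKM in lba1 upf3-1, 14 in lba1, 14.1 in upf3-1 and 13.2 in wild type (−4.34). The myrosinase gene TGG2, whose enzyme activates glucosinolates, was at 2.76 RPKM in lba1 upf3-1 against 252 in wild type (−6.28). Phenylpropanoid synthesis had 8 of 14 genes higher (median 1.11), among them C4H (592 RPKM in lba1 upf3-1 against 155 in wild type, 1.93) and CAD5 (133 RPKM in lba1 upf3-1 against 22.8 in wild type, 2.52), and its flavonoid and anthocyanin branch 8 of 11 lower (median −1.22), among them CHS (103 RPKM in lba1 upf3-1 against 257 in wild type, −1.32), FLS1 (−2.25) and the repressor MYBL2 (1.86 RPKM in lba1 upf3-1 against 22.7 in wild type, −3.30).

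Of 12 small heat shock protein genes described, which keep unfolding proteins soluble, 10 were higher and 1 lower, with a median of 4.86. HSP17.6A, of the cytosol, was at 119 RPKM in lba1 upf3-1, 3.20 in lba1, 0.596 in upf3-1 and 0.464 in wild type. AT1G53540, a class I member, was at 29.3 RPKM in lba1 upf3-1, 4.62 in lba1, 0.171 in upf3-1 and 0.32 in wild type (5.18), and HSP23.6-MITO, of mitochondria, at 27.1 RPKM in lba1 upf3-1, 0.631 in lba1, 0.138 in upf3-1 and 0.282 in wild type (5.14). The 2 cytosolic genes were also above wild type in lba1, and upf3-1 was near wild type. The mock column, wild type kept 4 h in liquid medium, was also high for all 3. It held HSP17.6A at 32.9 RPKM, AT1G53540 at 21.1 and HSP23.6-MITO at 15.2. AT4G21870, annotated in the same family, was lower (4.87 RPKM in lba1 upf3-1 against 28.8 in wild type, −2.45). The list of heat shock factors and larger chaperones had 10 of 25 genes higher and 2 lower, with a median of 0.77. HSFA2, the factor that sustains the heat response, was at 49.9 RPKM in lba1 upf3-1, 3.55 in lba1, 2.04 in upf3-1 and 2.08 in wild type (4.29), but HSP101 (0.79), HSP70 (0.77) and the factors HSFA1A (0.23), HSFA1B (0.35) and HSFA1D (0.42), which start that response, were within 2-fold. HSC70-1 was lower, at 462 RPKM in lba1 upf3-1 against 992 in wild type (−1.10). Chaperones of the endoplasmic reticulum stayed near wild type, with 2 of 15 genes higher and none lower. BIP1 (0.16), BIP2 (0.14) and CNX1 (0.12) were within 2-fold, and the stress regulator BZIP60 was at 86.1 RPKM in lba1 upf3-1 against 16 in wild type (2.39).

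The heat shock element was searched on both strands as GAA, 2 free bases, TTC, 2 free bases and GAA, and 0.393% of all promoters held it. It was present in 2 of 16 small heat shock promoters and 3 of 35 promoters of heat shock factors and large chaperones, in 0.941% of genes at least 4-fold higher and in 0.139% of genes at least 4-fold lower. HSP17.4, AT1G53540 and HSFA2 are shown because they hold it and were higher, HSP17.4 at 182 RPKM in lba1 upf3-1 against 0.723 in wild type with 70.9% of its exon bases shared with another locus (RefSeq, TAIR10.1, 5′ to 3′, element in capitals):
HSP17.4, chr3:16984868-16985117, minus strand: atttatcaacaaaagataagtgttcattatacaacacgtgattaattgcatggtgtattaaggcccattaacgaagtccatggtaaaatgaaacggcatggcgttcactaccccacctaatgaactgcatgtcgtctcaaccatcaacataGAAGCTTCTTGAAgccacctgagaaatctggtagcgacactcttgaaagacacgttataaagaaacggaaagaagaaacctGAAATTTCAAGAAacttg
AT1G53540, chr1:19980049-19980298, plus strand: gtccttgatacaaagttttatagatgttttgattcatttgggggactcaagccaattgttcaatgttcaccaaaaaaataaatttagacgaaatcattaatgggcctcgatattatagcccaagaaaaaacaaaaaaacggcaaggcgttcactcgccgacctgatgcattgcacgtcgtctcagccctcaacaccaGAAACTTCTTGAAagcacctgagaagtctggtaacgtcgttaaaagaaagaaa
HSFA2, chr2:11135374-11135623, plus strand: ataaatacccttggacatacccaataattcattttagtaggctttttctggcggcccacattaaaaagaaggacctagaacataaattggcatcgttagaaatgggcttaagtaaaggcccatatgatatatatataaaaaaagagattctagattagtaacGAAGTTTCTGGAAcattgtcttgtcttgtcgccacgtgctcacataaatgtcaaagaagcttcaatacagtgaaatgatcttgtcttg

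Other stress lists also had most of their described genes higher. Of 16 genes of the mitochondrial retrograde response, by which impaired mitochondria signal to the nucleus, 11 were higher and 1 lower (median 1.65). The alternative oxidase genes AOX1D and AOX1A were at 85.2 RPKM in lba1 upf3-1, 0.187 in lba1, 2.72 in upf3-1 and 2.39 in wild type and at 233 RPKM in lba1 upf3-1, 28.6 in lba1, 52.5 in upf3-1 and 35.1 in wild type. The regulator NAC017 (0.61) was within 2-fold. Of 12 hypoxia genes 8 were higher and 1 lower (median 2.18). PCO1, an oxygen-sensing oxidase, was at 24.5 RPKM in lba1 upf3-1, 4.79 in lba1, 3.82 in upf3-1 and 4.09 in wild type (2.45) and the repressor LBD41 at 60.1 RPKM in lba1 upf3-1, 8.44 in lba1, 14.9 in upf3-1 and 11.5 in wild type (2.33), whereas SUS4, a sucrose synthase gene, was lower (3.19 RPKM in lba1 upf3-1 against 14.9 in wild type, −2.06). Of 9 genes of sugar transport and starvation 6 were higher, beside 22.1% of all genes. DIN10 (−0.17), BAM5 (−0.87) and APL3 (0.59) of that list were within 2-fold. BGLU30 was at 339 RPKM in lba1 upf3-1 against 3.12 in wild type (6.55). The monosaccharide transporter gene STP13 was at 141 RPKM in lba1 upf3-1 against 10.9 in wild type (3.64). The wall invertase gene CWINV1 was at 194 RPKM in lba1 upf3-1 against 19.4 in wild type (3.29).

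Abscisic acid genes were more often higher than lower. Of 32 described 14 were higher and 4 lower, with a median of 0.80. Among all genes 22.1% were higher and 21.2% lower, so the lower share of the list was below the background. The late embryogenesis genes LEA7 (59.2 RPKM in lba1 upf3-1 against 1.09 in wild type, 5.23), EM1 (17.7 RPKM in lba1 upf3-1 against 0.079 in wild type, 4.97) and EM6 (31.7 RPKM in lba1 upf3-1 against 0.621 in wild type, 4.84), which protect drying seeds, were higher, and so was RD29B (50 RPKM in lba1 upf3-1 against 1.00 in wild type, 5.07), a marker of abscisic acid response. RD29A, which also responds to cold, was at 0.34, and the cold-regulated COR15A and COR15B were lower, at 1.80 RPKM in lba1 upf3-1 against 15.4 in wild type (−2.79) and 0.511 RPKM in lba1 upf3-1 against 18.0 in wild type (−4.19), with 29.5% of COR15B exon bases shared with another locus. The kinase gene SNRK2.6 (0.76) and the phosphatase genes ABI1 (0.88) and ABI2 (0.58) were within 2-fold. CYP707A1, an enzyme that breaks abscisic acid down, was at 57.2 RPKM in lba1 upf3-1 against 2.07 in wild type (4.49), and the synthesis gene NCED3 at 0.83.

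Of 12 alpha expansins described, proteins that loosen the wall, 11 were lower and none higher, with a median of −2.99. EXPA8 was at 0.282 RPKM in lba1 upf3-1, 41.9 in lba1, 34.0 in upf3-1 and 28.2 in wild type (−5.20) and EXPA1 at 22.7 RPKM in lba1 upf3-1, 171 in lba1, 186 in upf3-1 and 188 in wild type (−3.02). XTH enzymes, which cut and rejoin xyloglucan, went both ways, with 7 higher and 11 lower of 23. XTH10 was at 153 RPKM in lba1 upf3-1 against 1.34 in wild type and XTH23 at 144 RPKM in lba1 upf3-1 against 6.18 in wild type, XTH6 at 1.78 RPKM in lba1 upf3-1 against 37.2 in wild type and XTH4 at 10.0 RPKM in lba1 upf3-1 against 100.3 in wild type. Primary wall cellulose synthase genes were lower in 4 of 5 cases, from CESA2 (−2.07) to CESA3 (−1.02), and CESA1 was at −0.67. All 14 wax and cutin genes described, which build the cuticle, were lower, with a median of −2.58. CER1, of alkane synthesis, was at 2.03 RPKM in lba1 upf3-1, 25.4 in lba1, 18.3 in upf3-1 and 19.9 in wild type, and the transporter gene ABCG12 at 6.83 RPKM in lba1 upf3-1, 38.9 in lba1, 47.7 in upf3-1 and 41.6 in wild type.

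Few mitotic cyclin and kinase genes averaged 5 RPKM over the 6 columns, though some were above that level in wild type. Of 14 mitotic cyclin and kinase genes 1 was described, the cytokinesis gene KN (3.72 RPKM in lba1 upf3-1 against 25.2 in wild type), and all 14 lay below wild type, between −2.78 and −1.35. CDKB2;1, a mitotic kinase gene, was at 1.59 RPKM in lba1 upf3-1 against 8.33 in wild type. Replication genes had 4 of 6 lower, with PCNA1, the sliding clamp, at 3.66 RPKM in lba1 upf3-1 against 11.5 in wild type (−1.53). The G1 cyclins CYCD3;1 (−0.21) and CYCD3;3 (−0.29) were within 2-fold, and CYCD1;1 (0.98 RPKM in lba1 upf3-1 against 8.83 in wild type, −2.66) and CYCD3;2 (−1.29) were lower.

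Auxin and cytokinin response genes were mostly low, and brassinosteroid genes went both ways. Of 32 SAUR genes described, small auxin-induced proteins that promote expansion, 20 were lower and 6 higher (median −2.81, and −0.62 where the filter was set on the columns of lba1 upf3-1 and wild type only). SAUR50 was at 0.456 RPKM in lba1 upf3-1, 36.3 in lba1, 35.3 in upf3-1 and 30.3 in wild type and SAUR16 at 0.773 RPKM in lba1 upf3-1, 47.6 in lba1, 46.5 in upf3-1 and 40.3 in wild type, while SAUR36, a senescence-linked member, was at 26.4 RPKM in lba1 upf3-1, 6.16 in lba1, 5.10 in upf3-1 and 3.98 in wild type (2.58). Of 20 Aux/IAA repressors 13 were lower and 1 higher (median −1.45, and −0.91 without the filter), with IAA7 at 5.22 RPKM in lba1 upf3-1 against 40.2 in wild type (−2.83), IAA17 at 1.04 RPKM in lba1 upf3-1 against 13.2 in wild type (−3.15) and IAA26 at 49.6 RPKM in lba1 upf3-1 against 21.3 in wild type (1.2). Cytokinin response had 4 of 7 genes lower, with ARR7 at 1.04 RPKM in lba1 upf3-1 against 12.1 in wild type and ARR4 at 12 RPKM in lba1 upf3-1 against 42.9 in wild type. CPD, of brassinosteroid synthesis, was lower (2.44 RPKM in lba1 upf3-1 against 30.9 in wild type, −3.42), and BR6OX2, of its last step, higher (27.9 RPKM in lba1 upf3-1 against 6.86 in wild type, 1.95). Among the other brassinosteroid genes described, BES1 (−3.02) was lower, and DWF4 (−0.48), DET2 (−0.26), BRI1 (−0.93) and BZR1 (−0.14) were within 2-fold. Of 11 plasma membrane aquaporins, which carry water, 9 were lower and none higher (median −1.96), and of 5 vacuolar ones 4 were lower, with TIP1;1 at 12.6 RPKM in lba1 upf3-1 against 282 in wild type, and the seed form TIP3;1 was higher (25.8 RPKM in lba1 upf3-1 against 1.17 in wild type, 3.98).

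**Figure D5:**
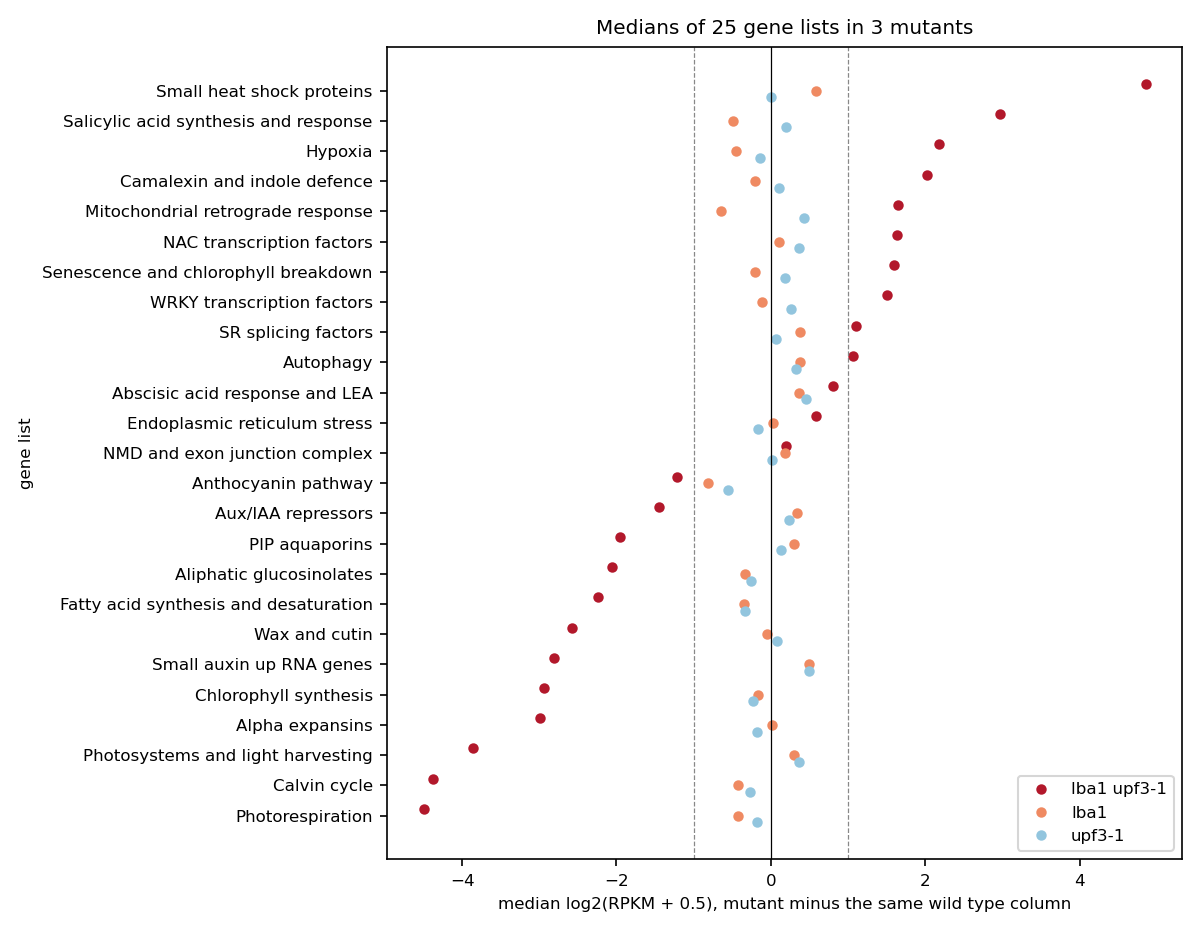
Median difference of 25 gene lists on log2(RPKM + 0.5) for lba1 upf3-1, lba1 and upf3-1, each minus the same wild type column, with dashed lines at 2-fold. The lba1 upf3-1 medians run from −4.50 to 4.86, and no median of lba1 or upf3-1 passes 2-fold.

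Markers of specialised cells were low beside these groups, and their part in the results was not tested. All 9 markers of the stomatal lineage and guard cells were below wild type, at differences from −4.03 to −1.52, with a summed level of 12.3 RPKM in lba1 upf3-1 and 136 in wild type. TMM, a receptor-like protein of the lineage, was at 0.616 RPKM in lba1 upf3-1, 7.69 in lba1, 3.81 in upf3-1 and 8.71 in wild type, and MYB60, of guard cells, at 1.3 RPKM in lba1 upf3-1, 9.59 in lba1, 10.7 in upf3-1 and 10.8 in wild type. All 4 vascular markers were lower, with a summed level of 11.2 RPKM in lba1 upf3-1 and 107 in wild type. The vascular differences ran from −4.65 to −1.78. XCP2, a xylem protease gene, was at 0.941 RPKM in lba1 upf3-1, 27.0 in lba1, 19.6 in upf3-1 and 35.8 in wild type, and SUC2, the phloem sucrose transporter gene, at 7.37 RPKM in lba1 upf3-1, 40.1 in lba1, 34.8 in upf3-1 and 47.4 in wild type. Of 12 root markers 11 were below wild type. The epidermis gene PRP3 was at 0.224 RPKM in lba1 upf3-1 against 19.0 in wild type and the endodermis gene CASP1 at 0.793 RPKM in lba1 upf3-1 against 6.26 in wild type, but BGLU23, an abundant root glucosidase gene, was at 660.4 RPKM in lba1 upf3-1, 619.9 in lba1, 526 in upf3-1 and 516 in wild type (0.36) and held most of the summed level of 669 RPKM in lba1 upf3-1 and 577 in wild type. Of the meristem and primordium markers WUS and CLV3 stayed under 0.05 RPKM in both, STM was at 0.767 RPKM in lba1 upf3-1 against 1.25 in wild type, and ANT was at 1.64 RPKM in lba1 upf3-1 against 10.3 in wild type. Leaf, root and vascular genes were all present in wild type seedlings.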

How the data were processed

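The data are 12 mRNA libraries of 11-day-old seedlings, 2 per group in 6 groups. The authors deposited gene levels as RPKM, 1 pooled column per group, and the submitters' processing notes name TAIR10 as the build. How reads were aligned and counted, which gene lengths were used and how libraries were pooled is not given in the sources used here, and neither a library's own values nor counts entered. Depth was recovered from tRNA genes, whose RPKM values step in whole reads for 94.2 to 97.4% of values. It was 83.1 to 91.4 M reads in the untreated columns, so that a gene of 1 kb at 5 RPKM rests on 416 to 457 reads, and limits from it cover counting error only. Python 3.11.15 with pandas 2.3.3, numpy 2.4.6 and matplotlib 3.10.9 computed log2(RPKM + 0.5) for genes that averaged 5 RPKM or more across the 6 columns. A difference of 2-fold was called. No test across samples was possible with 1 column per group, and the size rule was tested on simulated data. Gene classes, overlaps and the 250 bases before each gene came from the RefSeq annotation of TAIR10.1, which holds 32835 of the 33602 loci. Named genes were members of the NMD list, the 25 largest differences in each direction, up to 6 per list and direction, and defining members that do not follow their list, and others were chosen after their values were seen. The members and the 52 lists were chosen with earlier results of these data known. Alternatives covered the pseudocount, the filter, scaling and the mock column in place of wild type. Some members are not reported here.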

Additional observations from a re-analysis of the deposited data

How the results depend on the processing

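Without any filter other than a value above 0 in either column, 4950 genes were higher and 4797 lower of 27971, against 3105 and 2988 of 14079. The other counts stayed within 1.5 times, from 2083 higher and 2117 lower (mean of at least 10 RPKM) to 4304 and 4401 of 19829 (mean of at least 1 RPKM). Of 52 list medians 40 passed 2-fold, and between 34 and 40 did under the 8 alternatives of pseudocount, filter and scaling, with none of opposite sign. List medians were not taken against the mock column, so their sign there was not checked. Median or quantile scaling brought the SR list to 0.98, and median scaling brought autophagy to 0.94 and phenylpropanoid synthesis to 0.99. Surface immune receptors lay between 0.92 and 0.99 in 5 of 8 alternatives. Without a filter the medians were 0.55 for NAC, −0.91 for Aux/IAA, −0.96 for the anthocyanin pathway and −1.34 for XTH genes.

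Of 351 genes that the naming rule chose, 351 kept their call with a pseudocount of 0.1 RPKM, 349 with 1 RPKM, 346 after median scaling and 347 after quantile normalization. With the mock column, wild type seedlings kept 4 h in liquid medium, in place of untreated wild type, 261 kept it and 33 changed sign, and the cause was not tested. On log2(RPKM + 0.5), lba1 upf3-1 minus mock, the differences above 0 were ACD2 0.06, P5CS1 1.1, LDOX 1.54, UGT78D2 0.01, CHS 0.32, TSO2 0.06, SUS4 1.82, DR4 0.63, GSTF14 1.08 and CRK21 0.42. Those below 0 were BIK1 −0.04, CYP81F2 −0.39, OM66 −2.23, AOX1A −0.68, ROF2 −0.14, HOP3 −0.44, HSFA4A −0.41, CCR2 −1.22, KRP6 −0.08, SULTR1;2 −0.53, HRE2 −1.68, BZIP60 −0.78, GSTU9 −0.16, CRK13 −0.22, CRK39 −1.38, CRK11 −0.55, XTH23 −0.88, XTH18 −2.13, XTH24 −0.72, SAUR79 −0.72, JAZ1 −0.77, JAZ5 −1.38 and JAZ10 −0.78. Outside that rule, LHCB4.3 (0.02), TAS3 (0.24) and PAD3 (−0.12), also named as higher or lower, changed sign.

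No paired analysis was possible because each group has 1 pooled column that carries no replicate number, and leaving out a replicate was not possible for the same reason. Depth limits little at 5 RPKM and above. Near 0 it limits folds to bounds.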

Other observations

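Several groups of genes that share a product name were examined after their values had been seen, so their counts describe and support nothing. Of 26 tubulin genes 15 were lower and none higher, with a median of −1.25. Of 41 proteasome genes 5 were higher and none lower (median 0.39), and of 17 VQ-motif genes, whose proteins bind WRKY factors, 11 were higher and none lower (median 1.54). Of 16 berberine bridge enzyme genes 11 were higher and 1 lower (median 3.63). Of 57 leucine-rich repeat kinase genes 11 were higher and 31 lower (median −1.1). Of 37 peroxidase genes 14 were higher and 14 lower, from −4.57 for AT4G26010 to 6.72 for PRX52 (146 RPKM in lba1 upf3-1 against 0.887 in wild type).

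Other genes with very large differences belong to none of the groups above. RGF9, a root growth factor peptide gene, was at 0.39 RPKM in lba1 upf3-1, 90.2 in lba1, 117 in upf3-1 and 87.5 in wild type (−6.63). GER3, a germin-like gene, was at 6.59 RPKM in lba1 upf3-1, 329 in lba1, 281 in upf3-1 and 851 in wild type (−6.91). AT1G68250, of unknown function, was at 50.4 RPKM in lba1 upf3-1, 21.0 in lba1, 0.606 in upf3-1 and 0.178 in wild type (6.23), high in lba1 as well as in lba1 upf3-1.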
